A study of Sus scrofa with 80 samples.

Results

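Germ cell and meiosis genes were followed through the postnatal testis and ovary of the Göttingen minipig, a small breed of Sus scrofa kept for safety studies. A gene was a member when its name on the array fell under a fixed pattern of symbols (SYCP, SYCE, HORMAD, TEX followed by a number, PIWIL, TDRD, DAZ, SOHLH, and DDX4, DMC1, SPO11, FIGLA, NOBOX, REC8, SMC1B, MSH4, ZP2, ZP4 and the like), which gave 42 of the 23722 genes measured. The rule used names only and no measured value. Expression was measured on one-colour Agilent arrays as a log2 signal, in which a difference of 1 is a 2-fold difference. Testis came from 1 male at each of 5 ages, namely 1 and 4 weeks, 2 and 4 months, and 2 years, and ovary from 1 female at each of the first 4 of these ages. Values in a row below follow that order of ages. Cerebellum, hypothalamus, cortex, liver, kidney, spleen and bone marrow gave 63 further samples, which served as the background. They came from untreated males and females at the first 4 ages and from males only at 2 years. For tests, the 8 gonad samples from 1 week to 4 months formed 4 groups of 2, namely testis or ovary at 1 and 4 weeks and at 2 and 4 months. Each group held 2 ages, so its spread includes whatever differed between those ages. All pigs were untreated, and the 2-year-old male had in part been raised elsewhere on other feed.

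In mammals germ cells divide meiotically at different times in the sexes. Oogonia enter meiosis before or around birth and arrest as oocytes enclosed in follicles, whereas spermatogonia enter meiosis only when the testis matures, and then give rise to spermatocytes and to haploid spermatids. During meiotic prophase the chromosomes form an axis of cohesin and HORMA-domain proteins, DNA breaks are made and repaired by recombination, and homologues are joined by the synaptonemal complex. Germ cells also silence transposons through small RNAs bound by PIWI proteins, the piRNAs, and oocytes secrete the zona pellucida.

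The tissue labels were checked with marker genes. INSL3, a hormone of Leydig cells, was between 15.91 and 16.00 in the 5 testis samples, and AMH, a hormone of immature Sertoli cells, was at 13.58 in testis at 1 week. PADI6, an oocyte enzyme, was between 10.05 and 13.27 in the 4 ovaries and between 2.37 and 2.83 in the testes. Of the defining markers, FOXL2 (granulosa cells) was well above background in 1 gonad sample and SALL4, NANOS2, CLDN11 and SPACA1 in none. The ovary at 4 months was the dimmest of the 9 gonad arrays, with a 75th percentile of raw intensity of 151 against 205 to 412 in the other gonad arrays. It also had the fewest genes well above background, 63.9% against 64.4% to 74.8%. Arrays of the gonad samples lay on separate slides except testis at 4 months and ovary at 1 week, so age and slide cannot be told apart. In bulk tissue fewer cells of a type and less RNA per cell cannot be told apart.

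The members ranged from genes measured in gonads alone to genes measured in every tissue. Of the 42, 38 were well above background in at least 1 gonad sample, 19 in all 9, and 17 in none of the 63 other samples, whereas 13 were well above background in at least 50% of those samples. Every testis sample lay above all 63 other samples for 17 members (40.5%), whereas 1.36% of all genes did so. They were DAZ1, DAZ2, DAZ3, DAZ4, DMC1, PIWIL2, SOHLH1, SYCE1L, SYCE3, SYCP2, SYCP3, TDRD1, TEX10, TEX12, TEX13B, TEX15 and TEX19. With the 4 DAZ entries, which had near-identical values, counted once, these were 14 of 39 (35.9%). Some of these ranks rest on weak signals, because DMC1, TEX13B and DAZ3 at 1 week and SYCE1L at 1 and 4 weeks were not well above background in testis. In ovary 5 members lay above all 63 other samples at every age (11.9%), FIGLA, SYCP2L, SYCP3, TEX10 and TEX19, against 1.35% of all genes. SYCP3, TEX10 and TEX19 thus ranked above every other tissue in both gonads at every age. In the ovary at 4 months, however, TEX10 was at 6.17 against at most 6.12 in the other tissues, and TEX19 was not well above background. SYCP2L was not well above background in ovary at 4 weeks and 4 months.

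**Figure D1:**
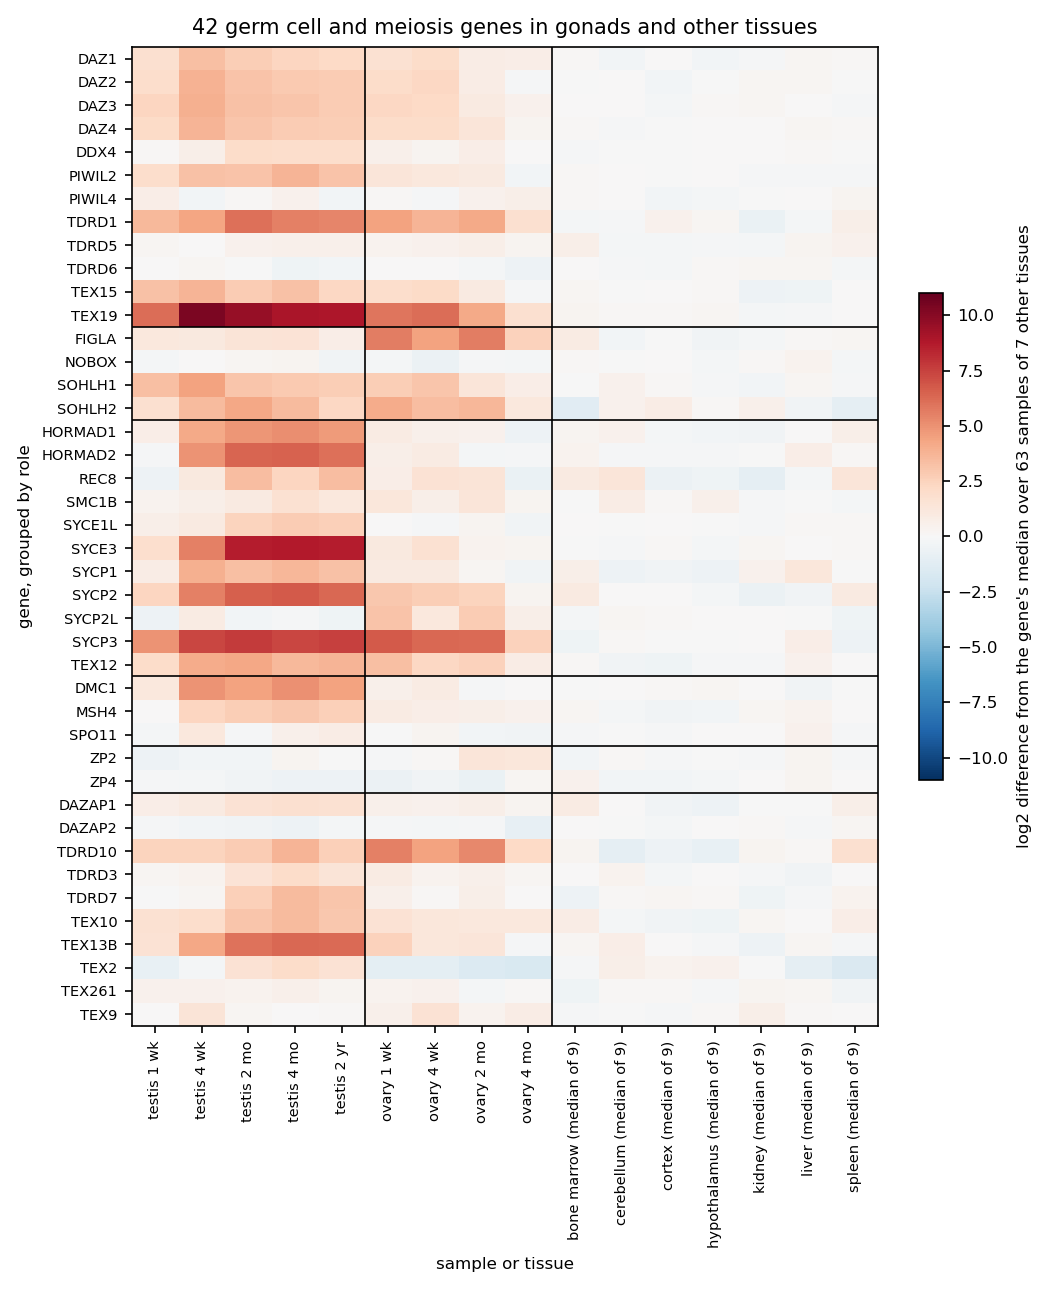
Each row is 1 of the 42 genes, grouped by role with horizontal lines, and each column a testis sample, an ovary sample or the median of the 9 samples of another tissue. Color gives the log2 difference from the median of that gene over the 63 samples of the 7 other tissues. TEX19, SYCE3 and SYCP3 stand out in testis from 4 weeks on, FIGLA and TDRD10 in ovary up to 2 months, and most rows are pale at 4 months in ovary.

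The earliest difference in testis was between 1 and 4 weeks. At 4 weeks 11 of the 42 members (26.2%) were at least 4-fold higher than at 1 week, a step that 1.17% of all genes made. These were DMC1, HORMAD1, HORMAD2, MSH4, SYCE3, SYCP1, SYCP2, SYCP3, TEX12, TEX13B and TEX19, and no member was 4-fold lower. With an offset of 50 in the background correction, which compresses low signals, 5 members and 0.333% of all genes made this step. From 4 weeks to 2 months 3 members (7.14%) were a further 4-fold higher, REC8, SYCE3 and TDRD7, which was close to the 7.04% of all genes. No member made a 4-fold step from 2 to 4 months or from 4 months to 2 years, where 0.169% and 0.312% of all genes were 4-fold higher. With 1 male per age these steps have no replicate check, and the spread between males of one age is not known.

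**Figure D2:**
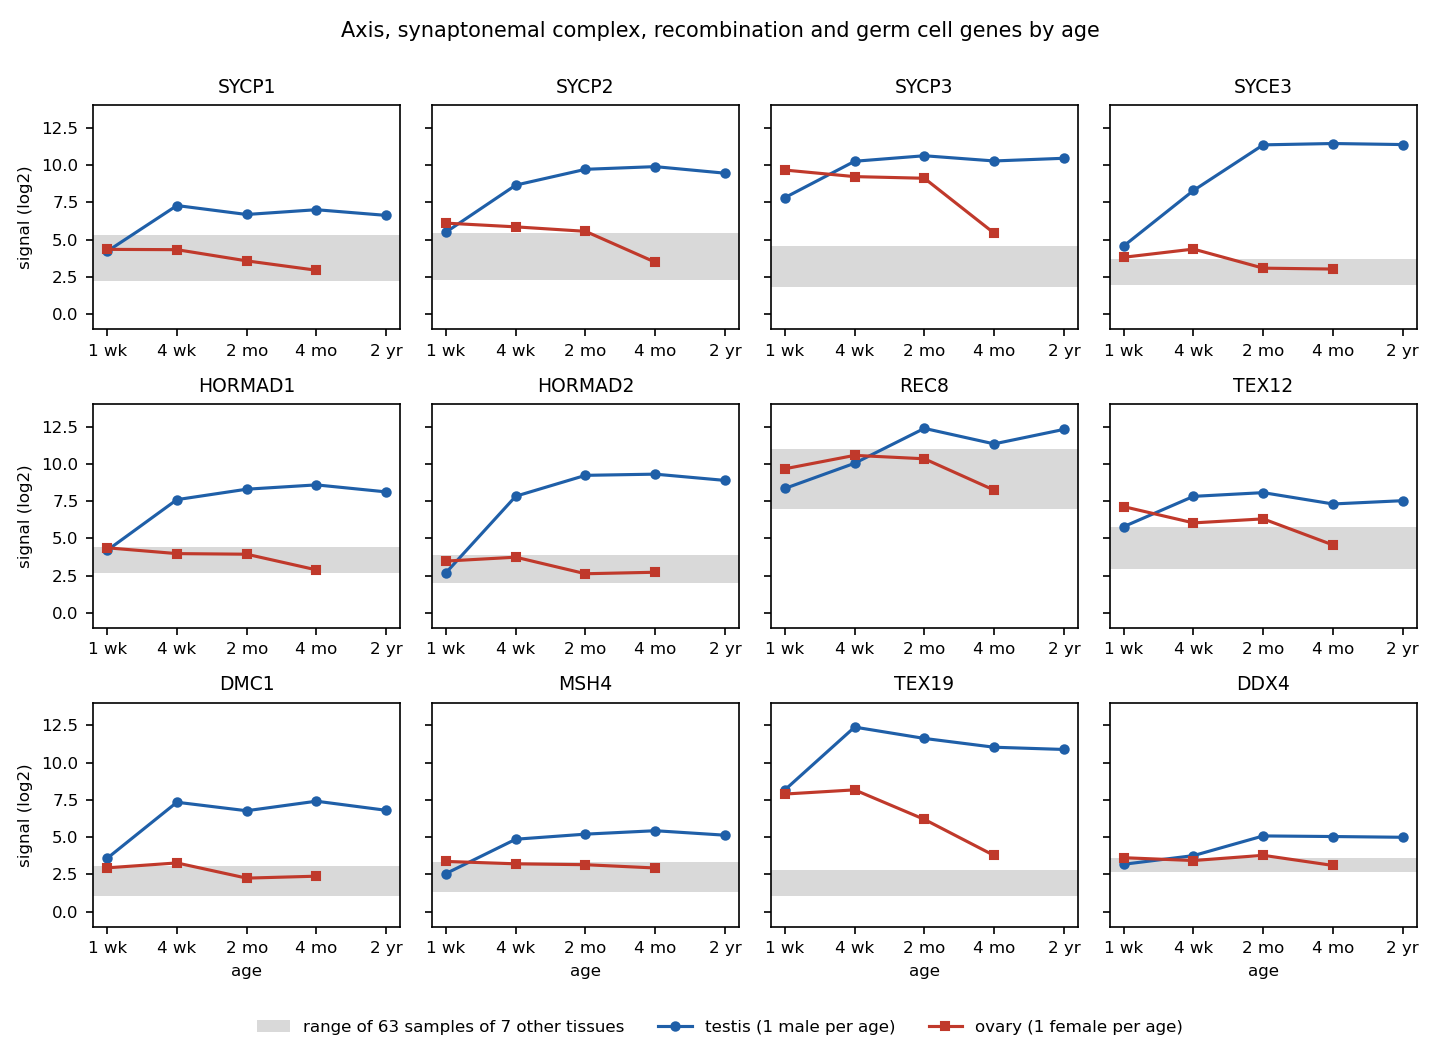
Each panel is 1 gene, with the log2 signal on the vertical axis and age on the horizontal axis. Points are single samples, and the grey band is the range of 63 samples of 7 other tissues. SYCP1, HORMAD1, HORMAD2, DMC1, MSH4 and TEX19 are high in testis from 4 weeks, SYCE3 takes a second step at 2 months, and SYCP3 is high in ovary until 2 months and at 5.44 at 4 months.

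Genes of the synaptonemal complex and chromosome axis made up the largest group, with 11 members. SYCP1, the transverse filament of the complex, was at 4.22, 7.29, 6.69, 7.01 and 6.63 in testis from 1 week to 2 years. It was not well above background at 1 week, so the first step was at least 8.45-fold, and the 4 later samples lay close together. SYCP2, of the lateral element, was at 5.51, 8.66, 9.72, 9.90 and 9.46. SYCP3, its partner in the lateral element, was at 7.82, 10.26, 10.63, 10.28 and 10.46, so its level at 1 week was already above the highest of the 63 other samples (4.59). SYCE3, of the central element, took 2 large steps, from 4.58 at 1 week to 8.30 at 4 weeks and to 11.36 at 2 months, and then stayed between 11.38 and 11.45. TEX12, also of the central element, was at 5.79, 7.82, 8.07, 7.31 and 7.53. SYCE1L, a relative of a central element gene, was later, with 3.53 and 3.84 at 1 and 4 weeks, not well above background, and 5.35 to 5.65 afterwards.

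The HORMA-domain proteins, which mark chromosome axes before they are joined, had the same early step. HORMAD1 was at 4.20, 7.60, 8.30, 8.59 and 8.12 in testis, and HORMAD2 at 2.70, 7.83, 9.23, 9.31 and 8.89. Neither was well above background at 1 week, and the steps to 4 weeks were at least 10.6-fold and at least 32.5-fold. REC8, the meiotic cohesin, was at 8.35, 10.04, 12.38, 11.34 and 12.31, so it was higher at each of the first 3 ages and 4-fold higher only from 4 weeks to 2 months. SMC1B, another meiotic cohesin, was between 3.41 and 4.74 and lay within the range of the other tissues in all but the 4-month testis. Its value averages 2 probes that disagreed. In testis the first was at 1.53, 1.46, 1.76, 3.19 and 2.24 and the second at 5.29, 5.95, 6.25, 6.30 and 6.14. SYCP2L, a paralog of SYCP2, was well above background in testis only at 4 weeks (3.55), where its 2 probes differed, at 4.62 and 2.48.

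Among recombination genes DMC1, the meiotic strand exchange protein, was at 3.58 at 1 week, 7.34 at 4 weeks and 6.77, 7.41 and 6.80 at the later ages. The step was at least 13.5-fold, and 98.0% of the difference between 1 week and 4 months was present at 4 weeks. MSH4, which stabilises crossover intermediates, was at 2.56 and then at 4.86, 5.20, 5.43 and 5.13, a first step of at least 4.16-fold. SPO11, which makes the DNA breaks, was not well above background in any gonad sample, with values between 2.22 and 3.80. Its highest gonad value was in the testis at 4 weeks. SPO11 levels in kidney reached 3.89, so this probe set separated no gonad sample from the other tissues.

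Of the genes of germ cell identity and the piRNA pathway, TEX19, a germ cell factor linked to transposon control, was highest in testis at 4 weeks. It was at 8.17, 12.38, 11.62, 11.03 and 10.88, against at most 2.80 in the other tissues. PIWIL2, a piRNA-binding protein, was at 4.51, 5.75, 5.73, 6.34 and 5.67, and TDRD1, a Tudor protein that binds PIWI proteins, at 7.22, 7.98, 9.69, 9.24 and 9.08. TEX15, needed for meiotic repair and silencing, was between 5.04 and 6.54 with no step of 4-fold. DDX4, the germ cell RNA helicase also called VASA, was at 3.18, 3.76, 5.08, 5.04 and 4.99, so that, as for TDRD1, its largest step came after 4 weeks. Its value averages 4 probes that disagreed. The first 2 went from 3.39 and 4.13 at 1 week to 7.41 and 8.03 at 4 months, while the other 2 stayed between 2.16 and 2.82. TDRD5 likewise held 1 probe that was 2.20 higher at 2 and 4 months than at 1 and 4 weeks and 2 probes that were 0.47 and 0.67 lower.

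DAZ1, DAZ2, DAZ3 and DAZ4 had near-identical values. In the 5 testis samples they were between 4.00 and 4.31 at 1 week and between 5.62 and 5.89 at 4 weeks, and then between 4.58 and 5.25. The names are those of human Y-linked copies of an RNA-binding germ cell protein, all their probes carry a name tag (Xhyb) other than that of most probes (Sp), and the pig RefSeq table lists DAZL but none of the 4. Which pig transcript they read was not tested, and they are better read as 1 uncertain measurement than as 4. PIWIL4 and TDRD6, of the piRNA pathway, were not well above background in any gonad sample, between 2.18 and 3.19 and between 1.70 and 2.42. In 11 members all probes carry the Xhyb tag, the DAZ entries and MSH4, REC8, SOHLH2, SYCP1, SYCP2L, TEX2 and TEX261, and the sources used here do not define it.

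None of the 4 transcription factors of the germ line made a 4-fold step in testis. SOHLH1, a factor of spermatogonia and of oocytes in primordial follicles, was at 6.46, 7.59, 6.25, 6.07 and 5.92 in testis, highest at 4 weeks. Its 2 Xhyb probes were at 9.31 and 9.23 at 1 week and its other 2 at 3.62 and 3.70, and all 4 were highest at 4 weeks. SOHLH2, its partner, was at 5.45, 7.16, 8.00, 7.22 and 5.96. FIGLA, a regulator of oocyte genes, was between 4.47 and 5.22 in testis at all 5 ages, within the range of the other tissues (3.04 to 5.46). Its 2 probes were at 6.63 and 3.16 in testis at 1 week and at 7.10 and 3.25 at 2 months, but at 9.39 and 9.40 in ovary at 1 week. The FIGLA values in testis and the differences from ovary given below thus average probes that disagreed in testis. NOBOX, an oocyte homeobox gene, was not well above background in any gonad sample under its symbol, between 1.67 and 2.55.

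The array also lists 11 transcripts by pig RefSeq number whose RefSeq symbol follows the same pattern, and these are no members by the rule. They added PIWIL1, which was at 5.13, 6.85, 7.85, 8.05 and 7.69 in testis, TDRD9 at 4.95, 6.07, 7.08, 7.32 and 7.14, and MAEL, a piRNA pathway gene, at 7.23, 8.14, 10.33, 10.30 and 10.19. The PIWIL1 value averages 2 probes that disagreed. From 1 week to 4 months in testis the first went from 2.78 to 7.85 and the second from 7.48 to 8.26. TEX11, a meiotic crossover gene, was at 2.68 at 1 week and 5.44 at 4 weeks, a step of at least 6.20-fold, and between 4.65 and 5.11 later. MSH5, the partner of MSH4, was at 6.99, 8.53, 8.30, 8.24 and 8.27. Both crossover genes thus had their main step between 1 and 4 weeks. TEX50, TEX29 and TEX38 were different. TEX50 was at 2.22 and 2.24 at 1 and 4 weeks and at 10.69, 10.85 and 10.71 afterwards, TEX29 at 3.10, 3.41, 9.43, 7.87 and 9.40, and TEX38 at 5.83, 5.84, 11.42, 10.79 and 11.04. These 3 had no step before 4 weeks and steps of 5.58 to 8.45 log2 units from 4 weeks to 2 months.

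The order of these differences was set beside genes of spermatids. Of the 42 members, 15 were at least 4-fold higher at 4 months than at 1 week, as were 9.08% of all genes. In 11 of these 15 (73.3%) over 50% of the log2 rise was present at 4 weeks, with a median of 71.7% of the rise. Among all 2153 genes that were 4-fold higher, 8.59% had passed 50% by 4 weeks and the median was 12.2%. Of 17 array entries for spermatid markers 15 were 4-fold higher at 4 months, none of them had passed 50% at 4 weeks, and the median was 3.31%. CRISP2 (38.5%) and the entries for LDHC (42.4% and 39.6%) came closest. Their steps from 1 to 4 weeks were 4.45, 3.08 and 2.70 log2 units, within rises of 11.55, 7.26 and 6.82 to 4 months. The list was set by gene name, and whether these and its other entries are confined to spermatids was not tested. PRM1 and PRM2, the protamines that pack sperm DNA, were at 2.82 and 3.08 at 4 weeks and near 16, at the top of the scale, from 2 months on. The members with a late rise were SYCE1L (14.5% at 4 weeks), TEX2 (20.2%), TDRD1 (37.5%) and TDRD7 (6.60%).

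**Figure D3:**
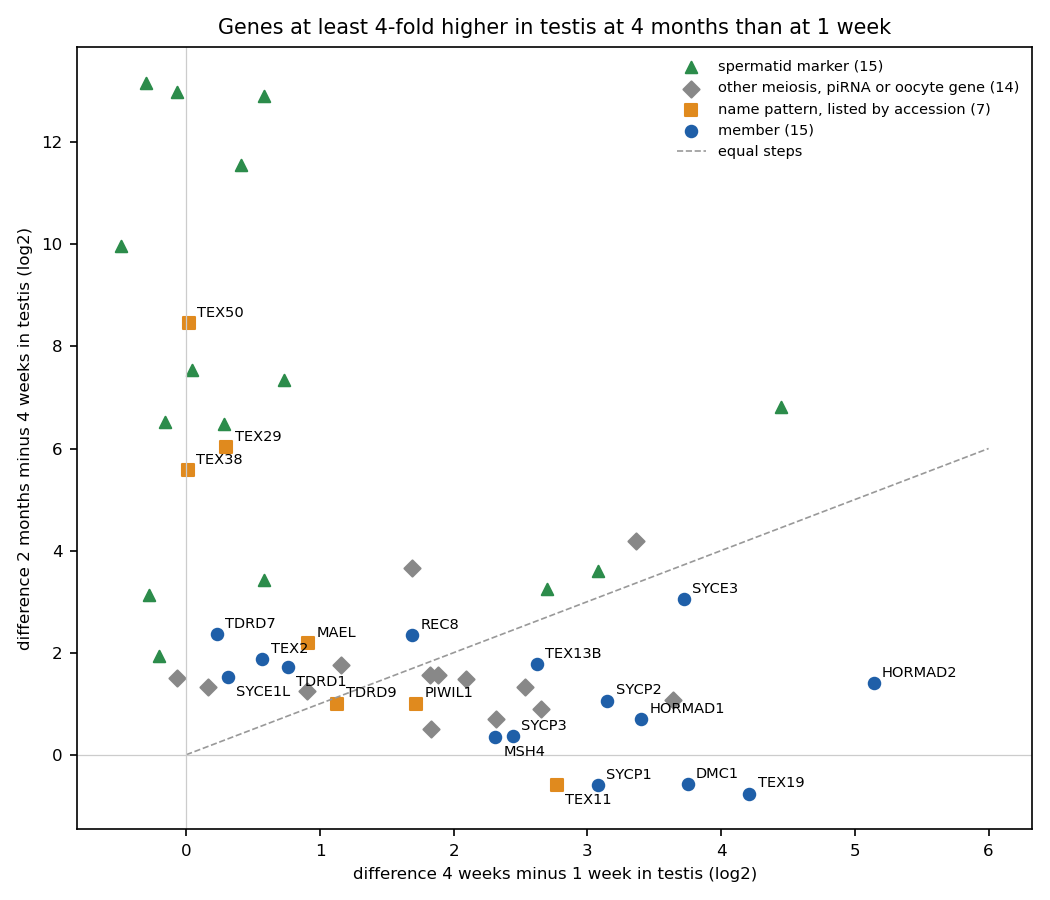
Each point is an array entry at least 4-fold higher in testis at 4 months than at 1 week, placed by its log2 step from 1 to 4 weeks (horizontal) and from 4 weeks to 2 months (vertical). Members are blue circles, entries of the name pattern listed by RefSeq number orange squares, other meiosis, piRNA and oocyte genes grey diamonds, spermatid markers green triangles, and the dashed line marks equal steps. HORMAD2, TEX19, DMC1 and SYCP1 lie at the right near or below 1.40, while TEX50, TEX29, TEX38 and most spermatid markers lie at the upper left.

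The test of testis at 2 and 4 months against 1 and 4 weeks called 10 of 42 members higher (23.8%) and none lower at an adjusted p under 0.05. Of all genes 14.6% were called higher, and 5403 of 23722 were called lower. The members called were SYCE3, TEX13B, TDRD7, REC8, TEX2, SYCE1L, DDX4, TDRD3, TEX10 and DAZAP1. In limma 15 members (35.7%) and 46.7% of all genes had an unadjusted p under 0.05. SYCE3 was higher by 4.96 ± 1.01 log2 units (SE, n = 2 and 2, adjusted p = 0.0084 in limma), TDRD7 by 2.96 ± 0.36 (adjusted p = 0.00124), and REC8 by 2.67 ± 0.82 (adjusted p = 0.039). DDX4 was higher by 1.59 ± 0.30 (adjusted p = 0.00624), and SYCE1L by at least 3.53-fold (adjusted p = 0.00286). For several genes that were already high at 4 weeks the younger group held 1 low and 1 high value, and these did not pass. HORMAD2 was higher by 4.01 ± 1.37 (adjusted p = 0.0563), SYCP2 by 2.73 ± 1.02 (adjusted p = 0.0735), DMC1 by 1.63 ± 1.03 (adjusted p = 0.258) and TEX19 by 1.05 ± 1.31. The median member differed by 0.85 and the median gene by -0.20 log2 units, a shift that was -0.08 under scaling to the 75th percentile. The median of the members was 0.33 (0.325) without the testis at 1 week and 1.29 without that at 4 weeks. Without the testis at 4 months the median of the members was 0.638. When all 9 tissues shared 1 estimate of spread, 20 members were called higher, where 4342 of all 23722 genes were.

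In ovary no member passed the corresponding test. In limma 0 of 42 members and 0.0379% of all genes were called, and 5 members (11.9%) and 6.96% of all genes had an unadjusted p under 0.05. The 5 were ZP2, SOHLH1, TEX15, DAZ3 and DAZ2. When all 9 tissues shared 1 estimate of spread, 8 members were called lower, DAZ1, DAZ2, DAZ3, DAZ4, SOHLH1, SYCP3, TEX15 and TEX19, and 1 higher, ZP2. The median member differed by -0.775 log2 units between 2 and 4 months and the earlier ages, and the median gene by 0.02. For the members it was -0.26 (-0.257) without the ovary at 4 months and -0.18 (-0.183) with an offset of 50.

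The ovary at 4 months, on the dimmest gonad array, stood apart for these genes. From 2 to 4 months 9 members (21.4%) were at least 4-fold lower, whereas 1.67% of all genes were, and no member was 4-fold higher, against 0.885% of all genes. They were FIGLA, REC8, SOHLH2, SYCP2, SYCP2L, SYCP3, TDRD1, TDRD10 and TEX19, and 3 members and 0.489% of all genes passed with an offset of 50. The part of array brightness was not tested. At the 2 earlier ovarian steps no member differed 4-fold in either direction, where 0.278% and 0.400% of all genes were 4-fold higher. Of the 42 members 34 (81.0%) had their lowest ovarian value at 4 months, as did 30.0% of all genes, and the exceptions were DMC1, HORMAD2, NOBOX, PIWIL4, TEX261, TEX9, ZP2 and ZP4. Under scaling to the 75th percentile 24 members (57.1%) and 25.5% of all genes were lowest at 4 months.

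Ovarian values of the meiosis genes were as follows. SYCP3 was at 9.67, 9.23, 9.12 and 5.44 from 1 week to 4 months, 12.8-fold lower at 4 months than at 2 months, and at 4 months it was still above all other tissues. SYCP2 was at 6.11, 5.86, 5.56 and 3.49, and TEX19 at 7.89, 8.17, 6.19 and 3.77. SYCP2 and TEX19 were no longer well above background at 4 months, so these differences are at least 4.19-fold and at least 5.35-fold. TEX12 was at 7.13, 6.04, 6.31 and 4.56. REC8 was at 9.67, 10.57, 10.34 and 8.24, and TDRD1 at 8.09, 7.43, 7.82 and 5.42. Other meiotic genes, among them DMC1 and MSH4, were at or near background in the ovaries. DMC1 was at 2.94, 3.27, 2.25 and 2.38, not well above background, MSH4 at 2.93 to 3.37, likewise, and HORMAD1 at 2.89 to 4.37. SYCP1 was at 4.35, 4.33, 3.58 and 2.95 in ovary, HORMAD2 at 3.48, 3.74, 2.63 and 2.73, and SYCE3 at 3.82, 4.37, 3.09 and 3.03. SYCE1L was between 2.48 and 3.16 and SMC1B, as the average of its 2 unlike probes, between 3.29 and 4.37. Both lay within or below the range of the other tissues. Of the piRNA and identity genes, PIWIL2 was at 3.87, 3.74, 3.53 and 2.30, TEX15 at 4.70, 4.88, 3.79 and 2.62, and DDX4 at 3.62, 3.43, 3.78 and 3.10. The DAZ entries were between 3.94 and 4.55 at the first 2 ages and between 1.98 and 3.32 at the later 2. TDRD5 was between 4.92 and 5.33.

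Several oocyte genes were also lower in the 1 ovary at 4 weeks than at 1 week and 2 months. Of the 42 members 16 (38.1%) had this order, close to the 32.2% of all genes, and ZP2 and ZP4 did not. FIGLA was at 9.39, 8.19, 9.40 and 6.30. SYCP2L was at 5.77, 3.82, 5.42 and 3.29, and well above background only at 1 week and 2 months. NOBOX, read by its pig RefSeq mRNA, was at 11.73, 9.67, 11.48 and 7.79 in ovary and between 3.37 and 4.88 in testis, unlike the entry under its symbol. ZP3, a protein of the zona pellucida, also listed by its pig RefSeq mRNA, was at 10.17, 8.29, 10.33 and 7.97 in ovary and between 2.59 and 3.91 in testis. MAEL followed the same course, at 9.63, 8.24, 10.06 and 6.68, and the Tudor gene TDRD10 at 11.66, 10.50, 11.33 and 8.30. SOHLH1 did not, at 5.86, 6.21, 4.53 and 3.91, and SOHLH2 was at 7.81, 7.12, 7.32 and 4.91. Of 8 entries for growing oocyte markers that are no members, 7 had this order and NPM2 did not, and their mean was 8.20, 7.15, 8.72 and 7.07. LHX8 differed little, between 3.65 and 3.96.

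**Figure D4:**
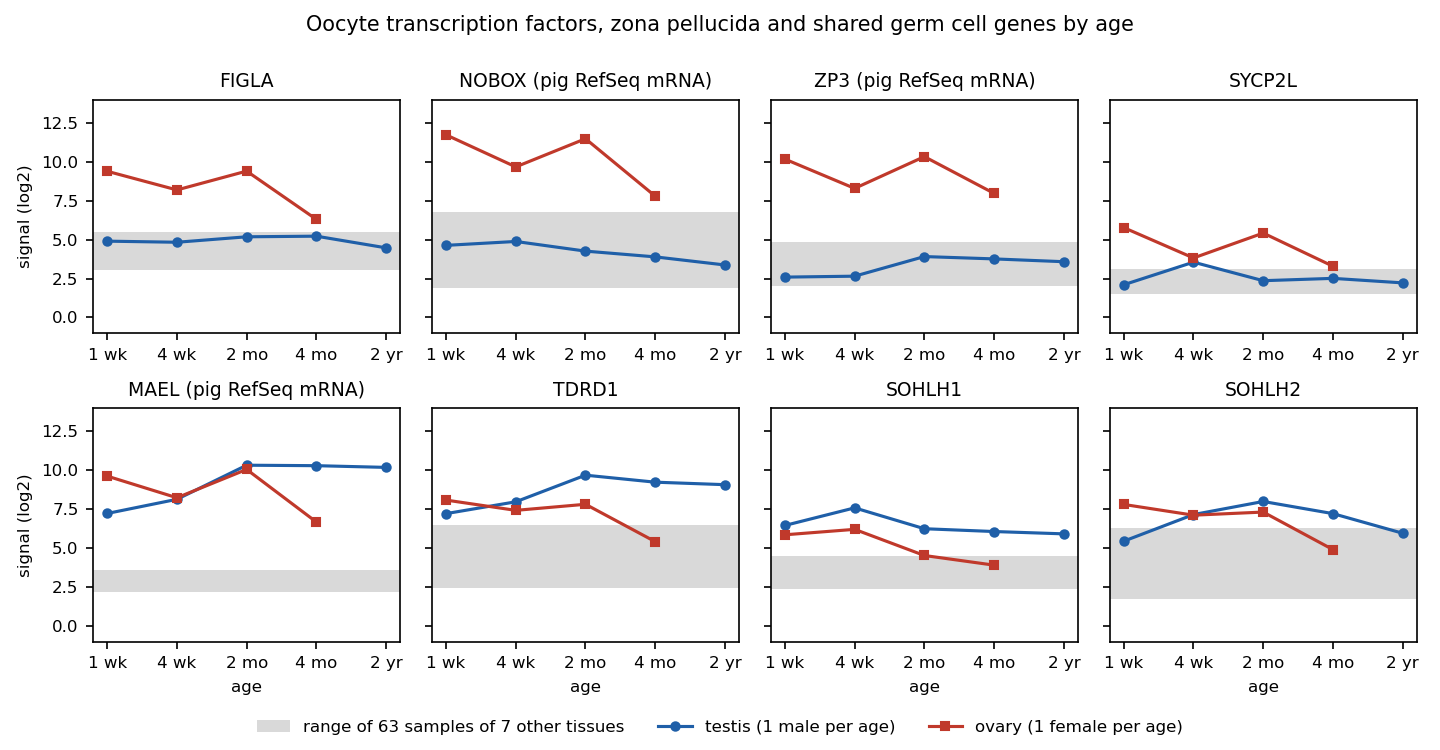
Each panel is 1 gene, with the log2 signal on the vertical axis and age on the horizontal axis. Points are single samples and the grey band is the range of 63 samples of 7 other tissues. FIGLA, NOBOX and ZP3 are higher in ovary than in testis at every shared age, and SYCP2L at 1 week and 2 months. SYCP2L is at 3.82 in ovary and 3.55 in testis at 4 weeks, where only the testis value is well above background, and neither is at 4 months. FIGLA, NOBOX, ZP3 and SYCP2L dip in the ovaries at 4 weeks and 4 months. MAEL, TDRD1 and SOHLH2 dip there as well, SOHLH1 does not at 4 weeks, and all 4 are measured in both gonads.

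Other cell types of the ovary moved at the same age, and their part in these values was not tested. The mean of 8 entries for Leydig and theca cells was at 3.79, 4.39, 5.34 and 9.62 in ovary from 1 week to 4 months, all 8 entries being well above background at 4 months and 7 at 2 months, against 2.97 to 3.70 in the 63 other samples. STAR, which carries cholesterol into mitochondria for steroid synthesis, was at 2.28 at 2 months and 9.31 at 4 months. The mean of 8 granulosa entries was at 5.92, 5.95, 6.89 and 8.37. In testis the mean of 14 Sertoli entries was at 7.84, 7.66, 6.04, 6.20 and 5.90. In the test of age, where 5403 of all 23722 genes fell, 9 of the 14 fell, among them AMH by 4.99 log2 units. The mean of 9 spermatogonia entries was at 6.51, 6.40, 5.57, 5.42 and 5.19 in testis, and 3 of the 9, for GFRA1 and UCHL1, fell in that test. That mean was higher in the 4 ovaries (6.73 to 7.20) and reached 8.31 in hypothalamus, so this list does not single out spermatogonia here.

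The zona pellucida members were weak. ZP2 was at 2.29, 2.58, 3.72 and 3.62 in ovary, well above background only at 2 months, and between 1.82 and 2.68 in testis. ZP4 was between 4.16 and 5.08 in ovary, 4.30 and 4.78 in testis and 4.39 and 6.05 in the other tissues, so it did not separate ovary from any other tissue. ZP1 and other named genes of the pathway, such as STRA8, BOLL, MEIOB and DAZL, were not analysed here.

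Testis and ovary were then compared at matched ages. At 2 and 4 months 25 of the 42 members (59.5%) were higher in testis, where 17.4% of all genes were, and 2 were lower, FIGLA and ZP2, where 25.3% of all genes were. With the DAZ entries counted once, 22 of 39 (56.4%) were higher. Of 12 members for germ cell identity and piRNA 9 were higher, or 6 of 9 with the DAZ entries counted once, of 11 for axis and synaptonemal complex 7, and of 3 for recombination 2. SYCE3 was higher in testis by 8.34 ± 1.01 log2 units (SE, n = 2 and 2, adjusted p = 8e-04 in limma), HORMAD2 by 6.59 ± 1.37 (adjusted p = 0.00758) and TEX19 by 6.35 ± 1.31 (adjusted p = 0.00728). SYCP2 was higher by 5.29 ± 1.02 (adjusted p = 0.00543) and HORMAD1 by 5.03 ± 0.97 (adjusted p = 0.00544). DMC1, SYCP1 and MSH4 were not well above background in either ovary, and were higher in testis by at least 17.2-fold, 11.4-fold and 4.57-fold (adjusted p = 0.00866, 0.0131 and 0.0256). FIGLA differed by -2.65 ± 0.90 (testis minus ovary, adjusted p = 0.0489), and ZP2 was at least 2-fold lower (adjusted p = 0.00687). FIGLA did not pass in 7 of the 8 fits that left out 1 sample, and its difference was -4.20 without the ovary at 4 months and -1.10 without that at 2 months. SYCP3 and TEX12 did not pass, at 3.17 ± 1.19 (adjusted p = 0.0681) and 2.26 ± 0.81 (adjusted p = 0.0592).

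At 1 and 4 weeks no member passed between testis and ovary in limma, where 2.10% of all genes were higher in testis and 441 of 23722 lower. Of the members 6 (14.3%) had an unadjusted p under 0.05, fewer than the 21.2% of all genes. These 6 were FIGLA, TEX15, SYCE1L, TDRD10, PIWIL2 and SOHLH1. FIGLA differed by -3.93 ± 0.90 (testis minus ovary, adjusted p = 0.0622). Among transcripts listed by RefSeq number ZP3 was at least 83.3-fold lower in testis (adjusted p = 0.0113) and NOBOX differed by -5.945 ± 1.14 log2 units (adjusted p = 0.0384), or adjusted p = 0.0539 with age as a block. The median member differed by 0.35 log2 units (testis minus ovary), by 0.669 without the testis at 1 week and by -0.159 without that at 4 weeks. The median gene differed by 0.021, 0.005 and 0.018. With all 9 tissues in 1 fit 11 members were called higher and 3 lower, where 2061 and 2184 of all 23722 genes were.

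**Figure D5:**
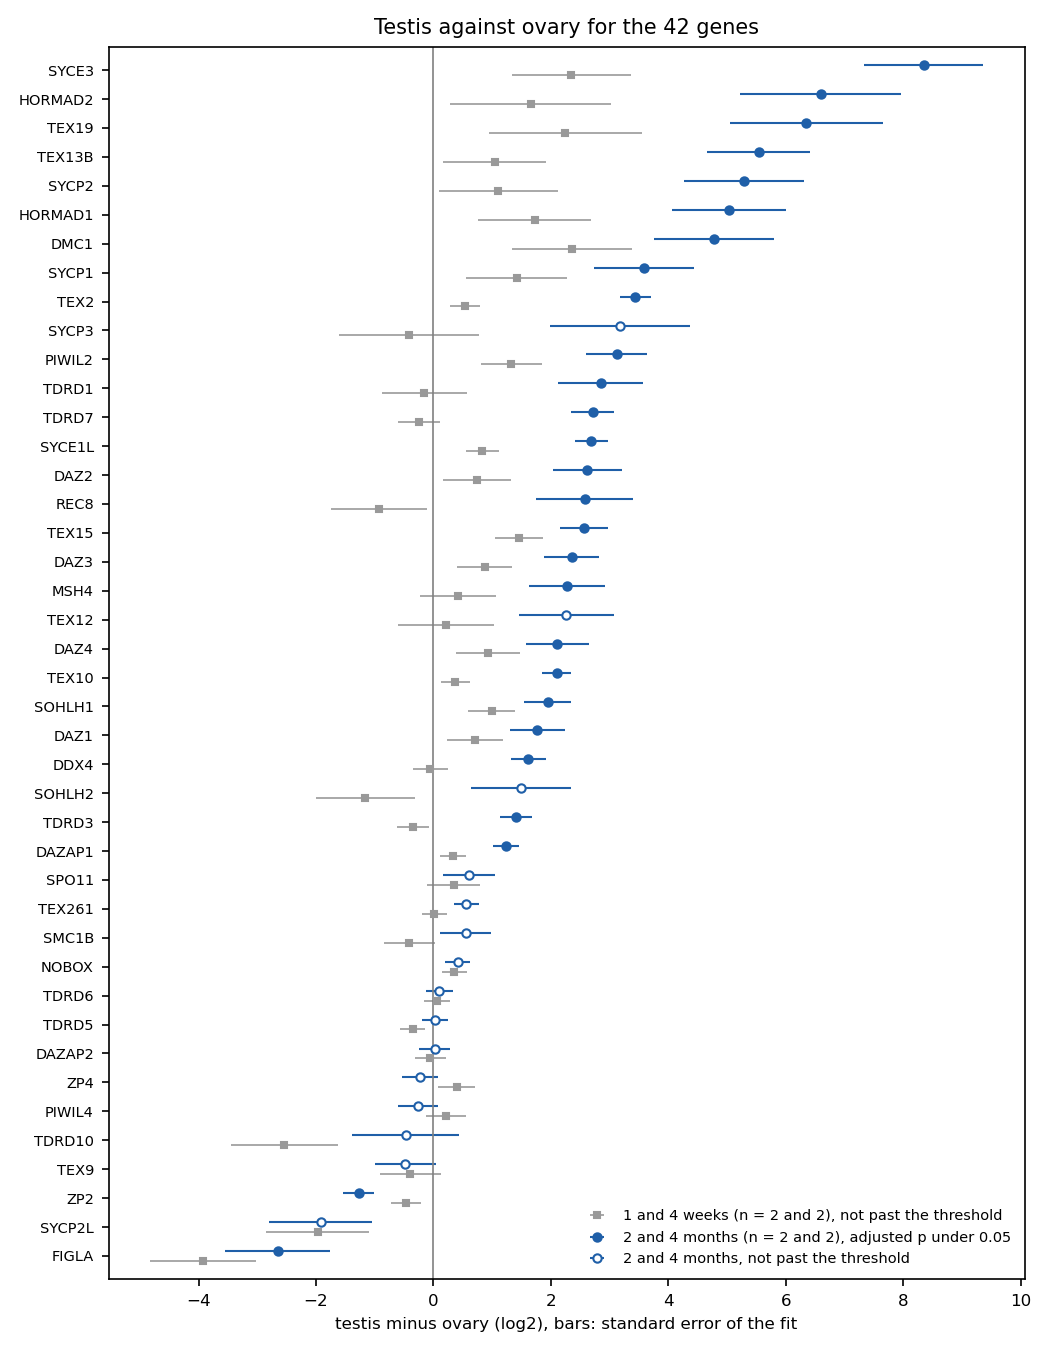
Each row is 1 of the 42 genes, and the horizontal axis is testis minus ovary in log2 units with the standard error of the fit. Circles are 2 and 4 months, filled where the adjusted p was under 0.05, and grey squares are 1 and 4 weeks. SYCE3, HORMAD2 and TEX19 lie farthest to the right at 2 and 4 months, FIGLA farthest to the left, and no square passed the threshold.

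The age change differed between the gonads for 8 members (19.0%), all with the larger increase in testis, where 10.7% of all genes were called in that direction. SYCE3 led with a difference of 5.995 ± 1.43 log2 units (SE, adjusted p = 0.0256 in limma), followed by TEX13B at 4.49 ± 1.24 (adjusted p = 0.0398). TDRD7 (2.96 ± 0.51), TEX2 (2.90 ± 0.37), SYCE1L (1.85 ± 0.40), TDRD3 (1.74 ± 0.38), TEX10 (1.72 ± 0.35) and DDX4 (1.67 ± 0.43) also passed. The number called depended on single samples. It was 2 without the testis at 4 months or the ovary at 1 week, 4 without the testis at 1 week or the ovary at 4 weeks, and 5 without the testis at 2 months or the ovary at 4 months. It was 17 without the ovary at 2 months and 19 without the testis at 4 weeks. With age as a block 4 members were called, SYCE3, TDRD7, TEX2 and REC8, and DDX4, SYCE1L, TDRD3, TEX10 and TEX13B did not pass (adjusted p = 0.0515 to 0.0831).

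Of the 10 remaining TEX, TDRD and DAZAP genes 6 rose with age in testis and none fell, where 14.6% of all genes rose and 5403 of 23722 fell. TEX13B, an X-linked testis gene, was at 3.24, 5.86, 7.64, 7.92 and 7.83 in testis and rose by 3.23 ± 0.88 log2 units (adjusted p = 0.0251). In ovary it was at 4.14, 2.88, 2.97 and 1.52. TDRD7, a Tudor protein of germ granules, was at 4.71, 4.94, 7.31, 8.25 and 7.75 in testis and between 4.77 and 5.38 in ovary. TEX2, a widely expressed gene of lipid transport, was at 7.86, 8.43, 10.30, 10.69 and 10.29 and rose by 2.35 ± 0.26 (adjusted p = 0.000814), and its ovarian values were between 6.98 and 7.63. TDRD3 rose by 1.48 ± 0.27 and TEX10 by 1.47 ± 0.25. TEX261 and DAZAP2, named after their values were seen, stayed between 7.76 and 8.04 and between 4.42 and 4.80 in testis. The DAZAP2 average rests on 1 bright probe, between 11.37 and 12.32 in testis, and 3 probes below 3.00. TEX9 was well above background only at 4 weeks, at 3.72 in testis and 3.96 in ovary.

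Other genes of meiosis, the piRNA pathway and oocytes that are no members had 37 entries for 34 of 46 listed genes. In testis 10 of the 37 rose with age, 2 fell, among them NANOS3, and 25 did not pass. Of all genes 14.6% rose in that test and 5403 of 23722 fell. YBX2, a germ cell RNA-binding protein, rose by 6.31 ± 1.15 log2 units and GTSF1, a piRNA factor, by 4.39 ± 1.07. NANOS3, an RNA-binding protein of early germ cells, fell by 0.94 ± 0.28. STAG3 and SPATA22 were picked after their values were seen. STAG3, a meiotic cohesin subunit, was at 10.46, 12.28, 13.84, 13.80 and 13.43 in testis and at 10.98, 10.57, 9.95 and 6.61 in ovary. SPATA22, which acts with recombination proteins, was at 4.96, 8.59, 9.67, 9.84 and 9.26 in testis by its pig RefSeq mRNA. Of 14 entries of this list 4-fold higher at 4 months than at 1 week, 8 (57.1%) had passed 50% of the rise at 4 weeks. At 2 and 4 months 13 were higher in testis and 7 lower, where 17.4% and 25.3% of all genes were. The differences were -9.11 ± 0.98 for PADI6 and -7.11 ± 0.86 for KPNA7. In ovary none of the 37 passed in limma.

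A few members were well measured outside the gonads. REC8 was well above background in all 63 other samples, with medians of 10.28 in cerebellum, 10.24 in spleen, 9.93 in bone marrow and 7.97 in kidney, and spread of 0.27 to 0.67 (SD, n = 9) within a tissue. Its testis value passed the highest other sample (11.01) only from 2 months on. TDRD10 had its highest other median in spleen, 7.84, with a highest sample of 9.39 at 2 years. SOHLH2, whose probes are of the Xhyb class, was between 5.60 and 6.28 in the 4 kidneys at 1 and 4 weeks and between 3.52 and 4.28 in the 4 kidneys at 2 and 4 months. SYCP1 was at a median of 4.60 in liver and at 2.82 to 4.00 in the other 6 tissues, and SYCP2 was at 4.11 in bone marrow and 4.10 in spleen and at 3.18 or lower in the other 5. These tissue differences were chosen after their values were seen and were not tested. DAZAP1, DAZAP2, TDRD3, TDRD5, TDRD10, TEX2 and TEX261 were also well above background in all 63 other samples.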

How the data were processed

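Total RNA of 9 tissues was hybridised to 80 one-colour Agilent arrays, giving 72 samples after 8 repeats of 1 kidney were averaged and a renal pelvis array was left out. The authors deposited scanner intensities per spot (Agilent Feature Extraction 11.5.1.1, per the labels), not normalized between arrays, and a log2 value table. Probe names carry gene symbols, and 3019 of 10818 entries listed by RefSeq number were named through the pig RefSeq table of Sscrofa11.1.

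The methods name robust multi-array analysis with background correction, quantile normalization and averages per gene, and the same order was followed from the median intensity of each spot. Spots flagged as outliers were left out, background was corrected with normexp in limma 3.58.1 under R 4.3.3 (offset 0), and quantile-normalized log2 values were averaged over spots, probes and genes. DAZL, STRA8 and other symbols without an entry were not analysed here, and 1 gene of the wider pathway list is not reported here by name. A gene counts as well above background in a sample if a probe was flagged so by the scanner software. A fold given as at least a value sets the dim samples at the higher of their own value and the lowest signal well above background. The lowest signals so used were 2.66 to 3.10 in the gonad arrays. The median SD of a gene over the 8 repeats was 0.115 log2 units, a technical spread only, and the number of arrays limits the precision.

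The 8 gonad samples up to 4 months were fitted in 4 groups of 2 in limma, with p-values adjusted (Benjamini-Hochberg) over all 23722 genes at 0.05. Steps between ages and levels against the 63 other samples were counted without a test. The labels do not give which samples share an animal, so p-values measure the spread between samples of a group. Genes named are all members of the role lists for germ cell identity, transcription factors, axis, recombination and zona pellucida, and of the other members the 5 with the largest called age change in testis in each direction. Members and lists were chosen with earlier results of these data known. Alternatives were the scanner-processed signal scaled to the 75th percentile, an offset of 50, the log2 value table and a filter on dim genes. Others were the linear probe average, age as a block, and a fit of all 9 tissues with and without slide as a random block. The 2-year testis, a 2-fold rule and leaving out samples were also used. Columns of the value table share a median of 4.57 and each follow their own array, and how they were normalized was not tested.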

Additional observations from a re-analysis of the deposited data

Results flagged for a closer look

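The age change of 8 members and of 4 transcripts listed by RefSeq number differed between testis and ovary, as the interaction term in limma passed the threshold. The members were SYCE3 (5.995 log2 units), TEX13B (4.494), TDRD7 (2.956), TEX2 (2.903), SYCE1L (1.852), TDRD3 (1.740), TEX10 (1.724) and DDX4 (1.669). The transcripts were TEX50 (8.338), TEX29 (5.747), TEX38 (5.030) and TDRD9 (2.833). In each the increase was larger in testis. With age as a block DDX4, SYCE1L, TDRD3, TEX10 and TEX13B no longer passed.

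Among 14 groups of 4 samples in the other tissues, the mean of the 42 members set 1 sample apart in spleen at 2 and 4 months. The male spleen at 4 months was at 3.85 and the other 3 at 3.80, a gap of 0.888 of the range of that group. Chance sets a sample apart in about 5% of groups by this check. In the renal pelvis array 0 of the 42 members were both well above background and above all 63 samples.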

How the results depend on the processing

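No paired analysis was possible because the replicate numbers were given in accession order and pair no samples. In its place, testis and ovary of the same age, which are different animals, were set against each other with age as a block, an alternative chosen after seeing the data. It called 4 members for the difference of the age changes in place of 8, and gave the same counts of members at 1 and 4 weeks, and the same 27 members at 2 and 4 months. Each value rests on 1 animal per age and tissue, and signals near 3 log2 units lie at the background of the array. No member or transcript called as reported changed direction under any of the 17 refits that tested it.

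In testis 10 members were called higher and 0 lower. All 9 tissues in one fit gave 20 and 1, with slide as a random block 20 and 1, and an offset of 50 or linear probe averages gave 1 lower. Of all 23722 genes, the fit of 9 tissues called 4342 higher and 6850 lower, in place of 3474 and 5403. Leaving out samples gave 6 to 16 higher and 0 to 1 lower, with 1 lower without the testis at 1 week. In ovary, with 0 called, all 9 tissues in one fit gave 1 higher and 8 lower, the same counts with the slide block, and leaving out samples gave 0 to 0 higher and 0 to 1 lower, with 1 lower without the ovary at 2 months. For the difference of the age changes, with 8 called, all 9 tissues gave 27, with the slide block 27, and leaving out samples gave 2 to 19. Between testis and ovary at 1 and 4 weeks, with 0 called, all 9 tissues gave 11 higher and 3 lower, with the slide block 11 and 3, the 75th percentile 1 lower, the added 2-year testis 1 lower, and leaving out samples 0 to 8 higher and 0 to 2 lower. At 2 and 4 months, with 25 higher and 2 lower, the value table and the filter on dim genes gave 1 lower, and leaving out samples gave 18 to 26 higher and 1 to 4 lower, with 4 lower without the ovary at 4 months.

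The steps depend most on the background. From 1 to 4 weeks in testis 11 members were 4-fold higher, 5 with an offset of 50 and 22 at 2-fold. Of all genes 1.17%, 0.333% and 4.25% were. From 4 weeks to 2 months 3 were higher, 5 with the 75th percentile, 6 with the value table and 5 with linear averages. Of all genes 7.04%, 8.77%, 8.29% and 7.36% were. At 2-fold 12 members were higher and 4 lower, where 12.9% and 17.9% of all genes were. At 2-fold, 1 member was lower from 2 to 4 months and 2 from 4 months to 2 years, against 2.3% and 2.25% of all genes. From 2 to 4 months in ovary 9 were 4-fold lower, 3 with an offset of 50 and 16 at 2-fold. Of all genes 1.67%, 0.489% and 7.17% were. At the earlier ovarian steps, with 0 at 4-fold, 2-fold gave 1 higher and 5 lower to 4 weeks and 3 higher and 10 lower to 2 months. At 2-fold 1.72% of all genes were higher and 2.59% lower to 4 weeks, and 3.79% and 3.16% to 2 months. The 75th percentile gave 1 higher and 1 lower, then 1 higher and 2 lower, 1 was lower by the value table, then 1 higher and 1 lower, and linear averages 1 lower to 2 months. An offset of 50 left 6 of 10 risen members past 50% of the rise at 4 weeks, in place of 11 of 15. Among all risen genes 4.95% passed, in place of 8.59%. The count of members past 50% and those of the lowest age were made after seeing the data. An offset compresses differences at low signal by its construction, and the cause of the other shifts was not tested.

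Over all genes, no other scaling or probe average moved the share of calls that were higher by over 10 percentage points except in ovary, where few were called. There it went from 33.3% to 14.3% with the 2-year testis added, 20.0% with the 75th percentile, 45.5% with linear averages and 50.0% with an offset of 50. The ovarian calls were 3 higher and 6 lower as reported, 227 and 390 with all 9 tissues, 4 and 24 with the 2-year testis added, 2 and 2 with an offset of 50, and 214 and 124 without the ovary at 2 months. Single samples moved this share in other comparisons. For the difference of the age changes it went from 45.2% to 69.7% without the testis at 4 months, 69.3% without the ovary at 1 week, 59.8% without the ovary at 4 weeks, 58.8% without the testis at 1 week and 59.3% with age as a block. For the testis age change it went from 39.1% to 49.7% without the testis at 4 months. Between testis and ovary at 1 and 4 weeks all 9 tissues called 2061 higher and 2184 lower in place of 498 and 441, and for the difference of the age changes 3686 and 5076 in place of 2539 and 3080.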
